A study of Bos taurus with 16 samples.

Results

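Osteopontin and 7 further secreted proteins of the uterine lining were followed in endometrium of 4 fertile cows over the weeks after parturition. The genes were SPP1 (osteopontin), SERPINA14 (uterine milk protein), PAEP, TCN1, GRP, STC1, CST6 and CLU. All probes that the array design assigns to these 8 symbols were taken, which gave 15 of the 43653 probes that are not controls. A probe entered the tests when 4 or more of the 16 arrays had it well above background. This held for 33174 probes in all and for 13 of the 15, with at least 1 probe of every one of the 8 genes.

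Each cow was biopsied from the uterine horns at nominal days 10, 30, 50 and 100 after calving, on true days 9 to 10, 29 to 30, 49 to 51 and 99 to 100. Total RNA from each biopsy was hybridised to a 1-colour Agilent bovine array, which gave 4 arrays at every time, from 4 different cows. The cows are called fertile in the labels, which name no treatment or breed, and all groups share the same 4 animals. Several pieces of tissue were taken with forceps at each visit, so a sample holds whatever mix of lumen, glands, stroma and muscle the forceps caught.

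Uterine glands secrete a mixture of proteins, known as histotroph, that feeds and signals to the conceptus before and during attachment, and in ruminants it includes serpins, osteopontin and carrier proteins. After calving the uterus loses its placental attachment sites, is invaded by leukocytes and rebuilds its epithelium, and several of these secreted proteins are also made by such leukocytes. Osteopontin, for instance, is a product of uterine glands and of macrophages, and transcobalamin 1 is stored in the granules of human neutrophils.

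The probes are shown because a gene's values can be read only as far as their oligonucleotides go. The deposited design lists them as 60-base sequences with positions on the bovine build Btau_3.1. Positions relative to exons and untranslated regions were not analysed here. The probes of SPP1 (chr6:37512110-37512169, minus strand), SERPINA14 (chr21:59392443-59392502, minus strand) and TCN1 (probe 1 at chr15:83957164-83957223 and probe 2 at chr15:83952790-83952849, minus strand) carry the differences described below, and the TCN1 pair does not overlap in sequence. PAEP probe 2 lies across 1180 bases of the genome (chr11:107168553-107169732, plus strand) and PAEP probe 3 in an unbroken stretch next to it (chr11:107169745-107169804, plus strand).
SPP1: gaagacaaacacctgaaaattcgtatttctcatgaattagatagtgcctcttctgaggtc
SERPINA14: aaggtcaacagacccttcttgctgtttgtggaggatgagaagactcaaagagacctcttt
TCN1 probe 1: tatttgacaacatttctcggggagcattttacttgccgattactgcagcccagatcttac
TCN1 probe 2: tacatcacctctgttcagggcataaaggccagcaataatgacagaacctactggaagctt
PAEP probe 2: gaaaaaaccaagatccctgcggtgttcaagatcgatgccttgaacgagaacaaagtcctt
PAEP probe 3: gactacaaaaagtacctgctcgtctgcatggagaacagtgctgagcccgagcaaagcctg

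Other probes of these genes end in, or share, short stretches that are shown for the same reason. PAEP probe 1 (chr11:107171376-107171436, plus strand) finishes with 6 adenines, in capitals in its last 30 bases. CLU probe 2 finishes with 6 adenines too. GRP probe 1 (chr24:60582286-60582345, plus strand) and GRP probe 2, which has no position in the design, share 22 bases that differ at 1 base, in capitals. Counted from 1 at the 5′ end of that stretch and with the base of probe 1 named before that of probe 2, the difference is T16C. CLU probe 1 (chr8:11291544-11291603, minus strand) and CLU probe 2 (chr8:11291513-11291569, minus strand) share 26 bases that differ by G10A in the same notation.
PAEP probe 1, last 30 bases: ttcagcaataaaggcataaacctgAAAAAA
GRP probe 1, bases from 36: tttgtgcaaaatactTaactat
GRP probe 2, bases from 1: tttgtgcaaaatactCaactat
CLU probe 1, bases from 35: tcacgggaaGaacttgctcgcatgcc
CLU probe 2, bases from 1: tcacgggaaAaacttgctcgcatgcc

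Levels below are log2 processed signals minus the percentile 75 of their array, so a level of 0 is the signal that 75% of the probes of that array did not exceed. A difference is the later time minus the earlier one, within cows, from a limma model fitted to all tested probes, and a call is an adjusted p under 0.05 after Benjamini-Hochberg adjustment over those probes. The arrays had 60.9% to 76.9% of their probes well above background and median signals of 51.1 to 154, the 2 lowest in cows 3 and 2 at day 100. Of 11 epithelial marker genes on the array, 9 were well above background on all 16 arrays, among them EPCAM, KRT18 and CDH1, as were 8 of 8 smooth muscle markers and 7 of 8 stromal fibroblast markers. Each cow had its own slide, so cow and slide cannot be told apart. Both extremes of the epithelial markers came from day 100. The array of cow 2 had a mean log2 level of -3.15 for the epithelial markers and 2.28 for those of smooth muscle, each relative to the mean of the 16 arrays. The array of cow 1 had 2.76 for the epithelial, -3.84 for the smooth muscle and 3.91 for the erythroid markers, and, where arrays were weighted by limma, the lowest weight, 0.23.

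Among the 13 tested probes, calls were confined to SPP1 and TCN1 and were all falls. No probe passed at day 30 against day 10, where 0.419% of all tested probes passed (0.407% as lower and 0.0121% as higher) and 5 of the 13 had an unadjusted p under 0.05, as did 4658 of all 33174 tested probes (14%). At day 50 against day 10 the 2 probes of TCN1 passed, with a background of 1.65% in either direction and 1.06% for falls. At day 100 against day 10, 3 probes passed, those of SPP1 and TCN1, with a background of 4.6% in either direction and 3.14% for falls. In the comparisons among days 30, 50 and 100 no probe on the array passed (0.0%). An unadjusted p under 0.05 was found for 5 of the 13 at day 50 and for 4 at day 100 against day 10. Of all tested probes, 18.6% and 25.7% had one in these comparisons. It was found for 0 of the 13 at day 50 against day 30, for 2 at day 100 against day 30 and for 1 at day 100 against day 50. There 9.33%, 12.8% and 3.14% of all tested probes had one. The F test over all times called both TCN1 probes, with a background of 1.03%, and SPP1 missed its threshold (limma adjusted p = 0.053).

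**Figure D1:**
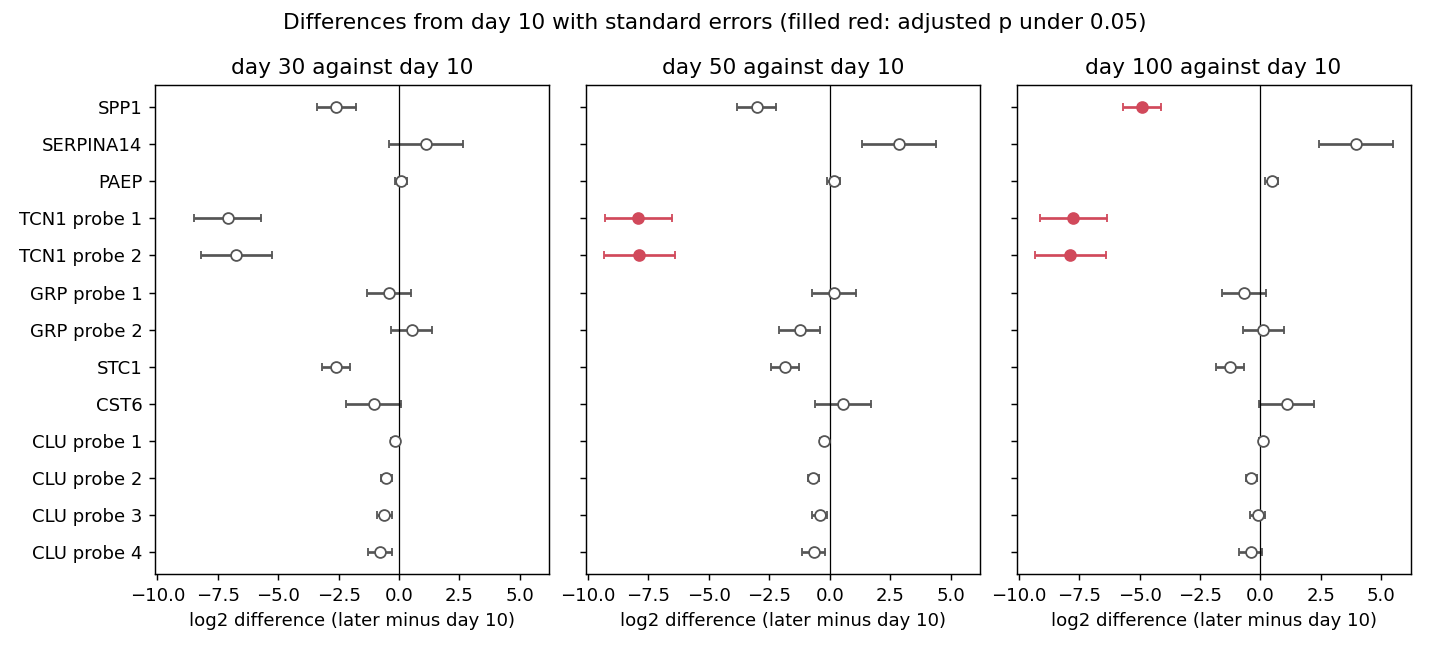
Log2 difference from day 10 of each tested probe of the 8 genes at days 30, 50 and 100 (x axis, later minus day 10), with the standard error of the limma fit as bars and adjusted p under 0.05 in filled red. The TCN1 probes lie between -7.91 and -6.73 in all panels and SPP1 reaches -4.90 at day 100, while SERPINA14 lies to the right of 0.

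Non-overlap of the groups was counted separately from the calls. At day 30 against day 10 the 4 cows of one time lay wholly below those of the other for 4 probes (TCN1 probes 1 and 2, CLU probes 3 and 4), where 4.88% of all probes did so, 3.63% lay wholly above and 8.51% did either. At day 50 this held for both TCN1 probes (background 8.18%), and SERPINA14 lay wholly above its day 10 values (background 8.68%). At day 100 it held for SPP1 and both TCN1 probes (background 6.46%), and SERPINA14 again lay wholly above (background 4.57%). The median log2 difference of the 13 probes from day 10 was -0.60 at day 30, -0.66 at day 50 and -0.38 at day 100, against -0.01, -0.03 and -0.07 over all tested probes.

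SPP1 encodes osteopontin, a phosphorylated glycoprotein that binds integrins and CD44 and links cells to each other and to the matrix. At day 10 its log2 level was -1.30, 2.75, 3.93 and 0.92 in cows 1 to 4. At day 30 it was -2.33, -1.88, 1.18 and -1.05, and at day 50 -0.68, -2.27, -1.28 and -1.60. At day 100 it was -4.23, -2.74, -2.93 and -3.42. All 4 values at day 100 lay below all 4 at day 10, as they did for 6.46% of all probes, whereas days 30 and 50 overlapped day 10. The day 100 values also lay below all those of days 30 and 50, for which the share over all probes was not counted. Cow 1 had the lowest SPP1 level of the day 10 arrays. The probe was well above background on all 16 arrays.

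The mean SPP1 level was -3.33 ± 0.67 at day 100 and 1.57 ± 2.28 at day 10 (SD, n = 4 each), a log2 difference of -4.90 ± 0.80 (SE) or 29.9-fold, lower in 4 of 4 cows (limma adjusted p = 0.0118). At day 30 the mean level was -1.02 ± 1.56 and the log2 difference from day 10 was -2.59 ± 0.80, lower in 4 of 4 cows (limma adjusted p = 0.188). At day 50 the mean level was -1.46 ± 0.66 and the difference -3.03 ± 0.80, lower in 3 of 4 cows and 0.62 higher in cow 1 (limma adjusted p = 0.0817). Day 100 lay 2.31 below day 30 and 1.87 below day 50 on the log2 scale, in 4 of 4 cows each time, without passing the test (limma adjusted p = 0.309 and 0.912). The fall at day 100 kept its call without any 1 array (adjusted p of 0.0102 to 0.0451) but lost it without cow 3 (-4.25, adjusted p = 0.0972) or cow 4 (-5.09, adjusted p = 0.0734), and with only the 8 arrays of those 2 times (adjusted p = 0.0969).

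**Figure D2:**
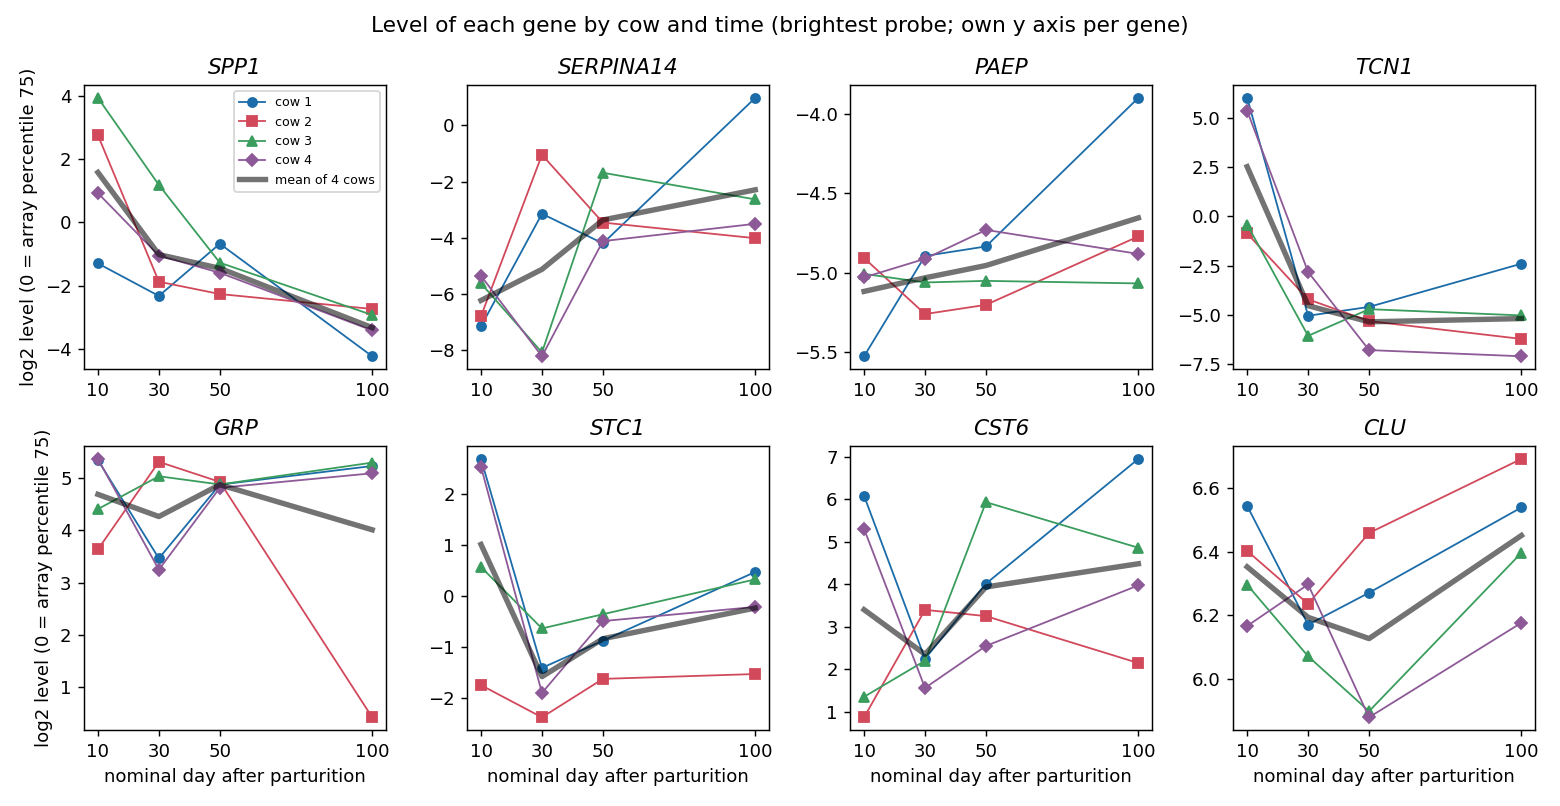
Log2 level of the brightest probe of each of the 8 genes (y axis, 0 is the percentile 75 of the array, and each gene has its own axis range) by nominal day after parturition, with 1 line per cow and the mean of the 4 cows in grey. SPP1 and TCN1 are highest at day 10, with means of 1.57 and 2.54, SERPINA14 is lowest there, with a mean of -6.24, and GRP of cow 2 drops to 0.43 at day 100.

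Macrophage markers, like SPP1, had their highest mean at day 10. The mean of the macrophage list was 1.585, -0.71, -0.177 and -0.699 at days 10, 30, 50 and 100. The mean of SPP1 was 1.57, -1.02, -1.46 and -3.33 at those times. All 10 of the 10 listed macrophage genes passed as lower at day 100 against day 10, where 3.14% of all tested probes did. At day 30 and at day 50 it was 4 of 10, with 0.407% and 1.06% of all tested probes. The level of the list ran from -1.27 to 0.00 over the cows at day 100, against 0.77 to 2.55 at day 10, without overlap. Of its genes 9 were well above background on every array, and CD163 was on 11. Over the 16 arrays, which share cows and slides, SPP1 correlated with this list with r = 0.63 and with the epithelial list with r = -0.38. At day 10 the macrophage list stood at 1.64, 0.77, 1.39 and 2.55 in cows 1 to 4, so cow 1, lowest for SPP1, was not lowest for the markers, and cow 2, lowest for the markers, had an SPP1 level of 2.75. The part of these cells in the SPP1 fall was not tested, and in bulk tissue fewer cells of a type and less RNA per cell cannot be told apart.

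Of 10 genes listed as receptors of osteopontin, 9 were tested, and 2 passed in any comparison. CD44, the hyaluronan receptor that also binds osteopontin, had levels of -3.13, -2.79, -3.17 and -1.90 at day 50 in cows 1 to 4, against -0.42, 0.16, 0.43 and 0.65 at day 10. The groups did not overlap, as 8.18% of all probes lay wholly below day 10 at day 50. The log2 difference of CD44 was -2.95 ± 0.47 (SE, limma adjusted p = 0.0194). At day 100 CD44 was 2.54 ± 0.47 below day 10, again in 4 of 4 cows (log2 difference -2.54, limma adjusted p = 0.0186). ITGA4, the alpha subunit of leukocyte integrins that bind osteopontin, had a difference of -1.61 ± 0.36 at day 100 (limma adjusted p = 0.0346), with its probe well above background in 3 of 4 cows at day 100 and 4 of 4 at day 10. ITGAV, which forms the main osteopontin receptors with beta subunits, stood at -1.29 ± 0.38 at day 100 against day 10 on the log2 scale, lower in 4 of 4 cows (limma adjusted p = 0.0687), and its partner ITGB1 at -0.16 ± 0.24 (limma adjusted p = 0.698). The median difference of the 9 genes from day 10 was -0.94, -1.29 and -0.87 at days 30, 50 and 100.

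Among 4 proteases that cut osteopontin and FAM20C, the kinase that phosphorylates it, MMP3 and MMP9 passed at all 3 later times against day 10. MMP3, stromelysin, had levels of 3.33, 3.08, 4.19 and 4.17 at day 10 and was not well above background in any cow at days 30 and 100. It was at least 1150-fold lower at day 30 and at least 1200-fold lower at day 100, each set against the lowest signal of probes well above background on the arrays (limma adjusted p = 1.22e-06 and 1.57e-06). At day 50, where 1 of 4 arrays had it well above background, MMP3 passed as lower too (limma adjusted p = 9.9e-07). The measured mean levels of MMP3 were 3.69 at day 10, -7.96 at day 30 and -7.70 at day 100. MMP9, gelatinase B, had levels of -3.15, -3.98, -4.82 and -4.84 at day 100, against 2.54, 0.33, 0.37 and 0.06 at day 10. Its log2 difference was -5.02 ± 0.49 (SE, limma adjusted p = 0.000825). The lowest day 10 value of MMP9 lay above all 12 later values, a pattern that 1.5% of all probes showed. MMP7 differed from day 10 by -5.01 ± 1.59 at day 100 (limma adjusted p = 0.0858) and F2, thrombin, by -1.07 ± 1.06 (limma adjusted p = 0.545), while FAM20C differed by -0.58 ± 0.39 (limma adjusted p = 0.364).

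TCN1 encodes transcobalamin 1, or haptocorrin, a secreted binder of vitamin B12. Probe 1 had log2 levels of 6.05, -0.86, -0.41 and 5.39 in cows 1 to 4 at day 10 and -5.06, -4.22, -6.08 and -2.83 at day 30. At day 50 the levels were -4.61, -5.33, -4.73 and -6.81, and at day 100 -2.41, -6.24, -5.04 and -7.13, where cows 2 and 4 were not well above background. All 12 later arrays lay below all 4 day 10 arrays, a pattern that 1.5% of all probes showed. Within day 10, cows 1 and 4 were over 5 log2 units above cows 2 and 3. The range of probe 1 over the 16 arrays was 13.18 log2 units, against a median of 2.27 and a percentile 95 of 6.30 over all tested probes.

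The mean level of TCN1 probe 1 was -4.55 ± 1.38 at day 30, -5.37 ± 1.01 at day 50 and -5.21 ± 2.05 at day 100, against 2.54 ± 3.69 at day 10 (SD, n = 4 each). Its log2 difference from day 10 was -7.09 ± 1.39 (SE) at day 30, which missed the threshold (limma adjusted p = 0.0568). It was -7.91 ± 1.39 at day 50 (241-fold, limma adjusted p = 0.0249) and -7.75 ± 1.39 at day 100 (215-fold, limma adjusted p = 0.0165). At day 100 only 2 of 4 arrays had either TCN1 probe well above background, so the 215-fold includes signals that were not. TCN1 probe 2 differed from day 10 by -6.73 ± 1.47, -7.88 ± 1.47 and -7.86 ± 1.47 at the 3 times (limma adjusted p = 0.0763, 0.0294 and 0.0186). Every cow was lower at each later time with each probe, the F test gave limma adjusted p = 0.0415 and 0.0491, and the probes correlated with r = 0.99 over the 16 arrays. Among the later times the TCN1 differences were between -1.15 and 0.17, none past the test.

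The TCN1 calls were sensitive to single animals. Without any 1 cow both probes missed the threshold at day 50 (adjusted p of 0.0595 to 0.175), and at day 100 they kept it only without cow 2 (adjusted p = 0.0306 and 0.0372). At day 50 both probes also missed it without the day 10 array of cow 1 or cow 4 or without any 1 of the 4 day 50 arrays (0.0599 to 0.118), and at day 100 without the day 10 array of cow 1 (0.0647 and 0.0709), for probe 1 without the day 100 array of cow 4 (0.0507) and for probe 2 without the day 10 array of cow 4 (0.0561). The F test calls of both probes were lost without any 1 cow (adjusted p of 0.0768 to 0.25 for probe 1 and 0.103 to 0.26 for probe 2), and each probe kept its F test call in 3 of the 16 fits that left out 1 array (0.0353 to 0.176 and 0.0422 to 0.198). The log2 difference of TCN1 stayed between -9.11 and -5.91 in all fits that left out a cow at those times.

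Neutrophil markers were high on the same day 10 arrays as TCN1. The neutrophil list, of which 5 of 7 genes were tested, stood at 4.77, 0.56, -0.12 and 3.99 in cows 1 to 4 at day 10. It reached no higher than -0.08 at day 30, from -1.40 to -0.74 at day 50 and from -1.90 to 1.61 at day 100. S100A8, S100A9 and S100A12 were well above background on all 16 arrays, MPO and ELANE on 12 each, and CXCR2 on 1. S100A12 passed as lower at day 50 against day 10, and the other 4 tested genes passed in no comparison with day 10. Over the 16 arrays, which share cows and slides, TCN1 correlated with the list with r = 0.90. In cow 1 at day 100 the list was at 1.61, above cows 2 and 3 at day 10, and TCN1 was at -2.41, below both of them. Other lists split the day 10 arrays in the same way. In cows 1 to 4 the epithelial list stood at 0.575, -2.656, -0.903 and 0.661 and the T and NK cell list at 0.928, -1.011, -0.143 and 1.435. The smooth muscle list was inverted, at -1.783, 1.844, 1.465 and -1.916. Over the 16 arrays TCN1 correlated with these 3 lists with r = 0.02, 0.47 and -0.30. The part of neutrophils or of biopsy make-up in the TCN1 difference was not tested.

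**Figure D3:**
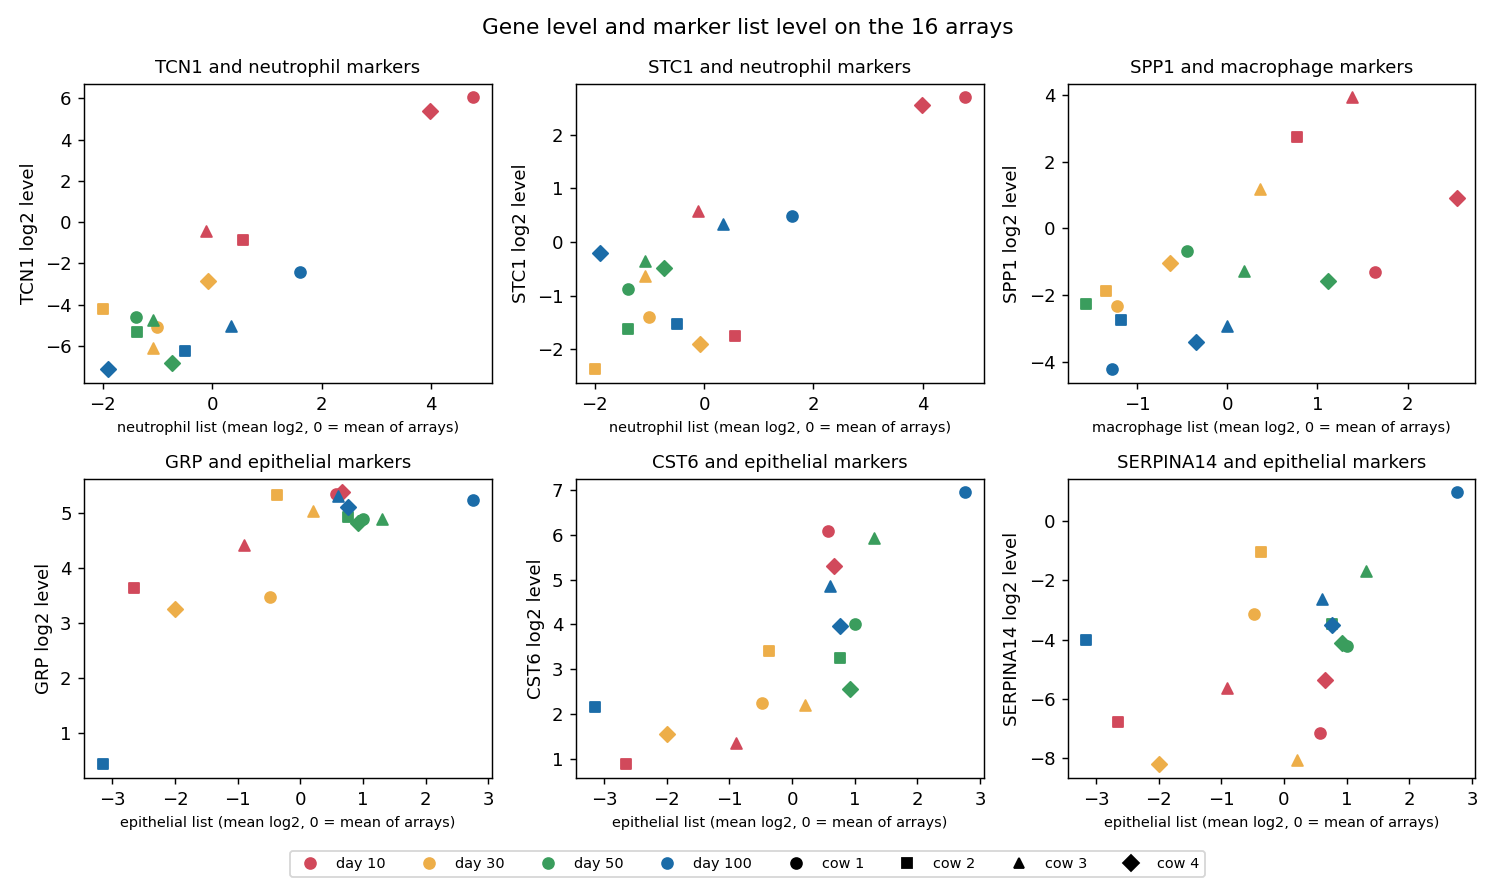
Log2 level of 6 gene and marker list pairs on the 16 arrays, with the list as mean log2 level of its genes relative to the mean of all arrays (x axis) and the gene as log2 level (y axis). Colours give the time and symbols the cow. TCN1 and STC1 are highest in cows 1 and 4 at day 10, where the neutrophil list is at 4.77 and 3.99, and GRP and CST6 lie low on the arrays of cow 2 at day 100 and cow 2 at day 10, where the epithelial list is at -3.15 and -2.66.

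Of 9 genes listed as other cobalamin carriers, receptors and enzymes, 8 were tested and none passed in any comparison. TCN2, the plasma carrier that delivers vitamin B12 to cells, differed from day 10 by -1.05, -0.94 and -0.95 at days 30, 50 and 100 on the log2 scale (limma adjusted p = 0.149, 0.122 and 0.0797). Its cellular receptor CD320 differed by -0.25, 0.56 and 0.41 (limma adjusted p = 0.886, 0.693 and 0.718). The median of the 8 genes was 0.04, -0.01 and 0.18.

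STC1, stanniocalcin 1, is a secreted glycoprotein known from ovine uterine glands and from calcium and phosphate handling. Its log2 level was 2.70, -1.74, 0.58 and 2.54 in cows 1 to 4 at day 10 and -1.40, -2.37, -0.63 and -1.89 at day 30. At day 50 it was -0.87, -1.62, -0.35 and -0.48, and at day 100 0.48, -1.52, 0.34 and -0.20. Cow 2 had the lowest level at each time, and its day 10 level lay within the day 30 range. STC1 was lowest at day 30 in every cow.

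At day 30 STC1 differed from day 10 by -2.59 ± 0.59 on the log2 scale, lower in 4 of 4 cows, without passing the test (limma adjusted p = 0.0854). The differences from day 10 were -1.85 ± 0.59 at day 50 and -1.25 ± 0.59 at day 100, with cow 2 the exception in each (limma adjusted p = 0.129 and 0.206). Day 100 was 1.35 ± 0.59 above day 30 in 4 of 4 cows (limma adjusted p = 0.374). The day 30 difference of STC1 was below the threshold in 3 alternatives only. These were without the day 10 array of cow 2 (-3.19, adjusted p = 0.0436), with array weights (0.0481) and with the epithelial list as covariate (0.0469). Without other arrays the adjusted p reached 0.295, and without any 1 cow it was 0.107 to 0.489. STC1 correlated over the 16 arrays with the neutrophil list with r = 0.81, with the T and NK cell list with r = 0.83 and with TCN1 with r = 0.72. It correlated with the macrophage list with r = 0.73, with the epithelial list with r = 0.46 and with the smooth muscle list with r = -0.70. The part of leukocytes or of biopsy make-up in the STC1 level was not tested. Of the 4 genes listed with STC1 only IGFBP4, an insulin-like growth factor binding protein cleaved by the STC1 target PAPPA, was tested, and its differences from day 10 were -0.29, -0.49 and -0.82.

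SERPINA14, uterine milk protein, is a serpin secreted in quantity by the uterine glands of pregnant ruminants. Among the 8 genes it had the largest positive mean difference from day 10. Its log2 level was -7.16, -6.80, -5.63 and -5.36 in cows 1 to 4 at day 10 and -3.15, -1.05, -8.09 and -8.23 at day 30. At day 50 it was -4.20, -3.46, -1.69 and -4.12, and at day 100 0.98, -4.02, -2.64 and -3.51. Days 50 and 100 lay wholly above day 10, while day 30 was split, with cows 1 and 2 above and cows 3 and 4 below the day 10 range. The probe was well above background on 4 of 4 arrays at days 50 and 100 but on 2 of 4 at days 10 and 30, with cows 1 and 2 at day 10 and cows 3 and 4 at day 30 below that mark.

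The mean SERPINA14 level was -2.29 ± 2.26 at day 100 and -6.24 ± 0.88 at day 10 (SD, n = 4 each). The log2 difference was 3.94 ± 1.52 (SE), higher in 4 of 4 cows, and did not pass the test (unadjusted p = 0.0248, limma adjusted p = 0.137). At day 50 the difference from day 10 was 2.87 ± 1.52, again higher in 4 of 4 cows (limma adjusted p = 0.341). At day 30 it was 1.11 ± 1.52, with changes of 4.01 and 5.75 in cows 1 and 2 and values of -2.46 and -2.87 in cows 3 and 4 (limma adjusted p = 0.769). SERPINA14 correlated with the epithelial list with r = 0.52, with the erythroid list with r = 0.62, with the stromal fibroblast list with r = -0.63 and with SPP1 with r = -0.63 over the 16 arrays, which share cows and slides. Its highest value, 0.98, came from cow 1 at day 100, where the epithelial list was also at its highest, 2.76, as was the erythroid list, 3.91. Without that array the SERPINA14 difference at day 100 was 2.87 (limma adjusted p = 0.264). HBB, a hemoglobin gene of the erythroid list, passed as higher at day 100 against day 10 (limma adjusted p = 0.0465), and its signal stood clear of background in 4 of 4 cows at day 100 and in 1 of 4 at day 10. The erythroid genes did not move together. Of the 3 tested, 1 passed as higher at day 100 and 1, SLC4A1, as lower. SLC4A1 was well above background in 4 of 4 cows at day 10 and in 1 of 4 at day 100. The part of biopsy make-up in the SERPINA14 level was not tested.

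No other serpin of a list of 8 passed in any comparison, and 5 of them were tested. SERPINA11 had the largest mean differences from day 10 among them, 3.54 ± 2.19 at day 50 and 3.28 ± 2.19 at day 100 (limma adjusted p = 0.418 and 0.364). SERPINA3, the antichymotrypsin gene, differed by -0.30 ± 0.22 at day 100 (limma adjusted p = 0.421). The list medians from day 10 were 0.10, -0.07 and -0.30.

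CST6 is cystatin M, a secreted inhibitor of legumain and cathepsins L, V and B. Its log2 level was 6.08, 0.87, 1.36 and 5.30 in cows 1 to 4 at day 10 and 2.25, 3.40, 2.20 and 1.56 at day 30. At day 50 it was 4.02, 3.25, 5.93 and 2.55, and at day 100 6.95, 2.15, 4.86 and 3.98. The day 10 arrays fell into a high pair, cows 1 and 4, and a low pair, cows 2 and 3, and they spanned nearly the whole range of the other times. CST6 differed from day 10 by -1.05 ± 1.15 at day 30, 0.53 ± 1.15 at day 50 and 1.08 ± 1.15 at day 100 on the log2 scale, with 2 of 4, 2 of 4 and 3 of 4 cows higher (limma adjusted p = 0.704, 0.846 and 0.577). CST6 correlated with the epithelial list with r = 0.78 and with the smooth muscle list with r = -0.83 over the 16 arrays, and the part of biopsy make-up in its level was not tested.

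The proteases and inhibitors around CST6 gave 1 call. Of 7 listed genes 6 were tested, and CTSB, cathepsin B, passed at day 50 against day 10. Its levels were 3.64, 3.73, 3.75 and 4.04 at day 50 in cows 1 to 4, against 4.95, 5.22, 5.22 and 4.87 at day 10. The groups did not overlap, as 8.18% of all probes lay wholly below day 10 at day 50. The log2 difference of CTSB was -1.27 ± 0.26 (SE, limma adjusted p = 0.0406). LGMN, legumain, had differences from day 10 of -1.03, -0.52 and 0.28 at days 30, 50 and 100 (limma adjusted p = 0.443, 0.674 and 0.78), and CST3, cystatin C, of -0.28, -0.48 and -0.19 (limma adjusted p = 0.478, 0.165 and 0.506).

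GRP encodes gastrin-releasing peptide, a neuropeptide that ruminant uterine glands also make. GRP probe 1 had log2 levels of 5.35, 3.64, 4.41 and 5.37 in cows 1 to 4 at day 10 and 3.47, 5.31, 5.04 and 3.25 at day 30. At day 50 the levels were 4.88, 4.93, 4.88 and 4.82, and at day 100 5.23, 0.43, 5.30 and 5.09. All 4 times overlapped, day 50 had a spread of only 0.05 (SD, n = 4), and cow 2 at day 100 stood over 4 log2 units below the other 3 cows of that time. GRP probe 1 differed from day 10 by -0.42 ± 0.91, 0.18 ± 0.91 and -0.68 ± 0.91 (limma adjusted p = 0.859, 0.939 and 0.662). Without the array of cow 2 at day 100 the last of these was 0.52 (limma adjusted p = 0.585). GRP probe 1 correlated with the epithelial list with r = 0.80 over the 16 arrays, which share cows and slides. The 5 lowest GRP values came from arrays on which that list was below 0.

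GRP probe 2, which shares 22 bases with probe 1 up to the base T16C, was well above background on 4 arrays, 1 at day 10, 2 at day 30 and 1 at day 100. Its level ran from -9.63 to -5.35. The GRP receptor GRPR and its relative NMBR were not well above background on enough arrays to be tested. NMB, the related peptide neuromedin B, differed from day 10 by 2.60, 2.31 and 3.44 on the log2 scale at days 30, 50 and 100 (limma adjusted p = 0.291, 0.253 and 0.0706).

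PAEP is a lipocalin, the gene of beta-lactoglobulin in cattle, and its human counterpart glycodelin is a known product of uterine glands. PAEP probe 1 was well above background on 15 of 16 arrays and ranged over 1.63 log2 units in all. Its levels were -5.53, -4.91, -5.01 and -5.03 in cows 1 to 4 at day 10 and -3.90, -4.77, -5.07 and -4.88 at day 100, with days 30 and 50 between -5.26 and -4.73. The times overlapped throughout, and the largest difference from day 10 was 0.46 ± 0.26 at day 100 (limma adjusted p = 0.284). PAEP probe 2 was well above background on 0 arrays and PAEP probe 3 on 1, that of cow 2 at day 50, at -5.63, so neither was tested. The PAEP values therefore rest on probe 1 alone, a probe that ends in 6 adenines.

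Of 6 other lipocalins 5 were tested and none passed in any comparison. LCN2, which binds bacterial siderophores, differed from day 10 by -1.77, -2.27 and -1.72 at days 30, 50 and 100 (limma adjusted p = 0.348, 0.158 and 0.196). PTGDS, a prostaglandin D synthase, differed by -1.98 ± 0.53 at day 100 (limma adjusted p = 0.0561). The list medians from day 10 were -0.66, -0.01 and -0.34.

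CLU, clusterin, is a secreted chaperone that binds misfolded proteins and terminal complement. Its 4 probes were well above background on all 16 arrays, and none passed in any comparison. Probe 1 ranged from 5.88 to 6.69 over the 16 arrays, with mean levels of 6.35, 6.19, 6.13 and 6.45 at days 10, 30, 50 and 100. Its range of 0.81 log2 units compares with a median range of 2.27 over all tested probes. CLU probe 2 ranged from 4.12 to 5.78, CLU probe 3 from 3.73 to 5.41 and CLU probe 4 from -1.65 to 1.00.

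At day 30 against day 10 the 4 CLU probes differed by -0.16, -0.53, -0.60 and -0.79 on the log2 scale (limma adjusted p = 0.699, 0.325, 0.391 and 0.486). Probes 2, 3 and 4 were lower in 4 of 4 cows, and for probes 3 and 4 the times did not overlap. For probe 3 the levels were 4.14, 4.41, 4.50 and 3.81 at day 30 and 5.05, 5.03, 4.69 and 4.51 at day 10, in cows 1 to 4. CLU probe 2 also differed by -0.67 ± 0.23 at day 50 (unadjusted p = 0.0123, limma adjusted p = 0.147). Probes 3 and 4, which lie over 10 kilobases apart in the design, at chr8:11291727-11292018 and chr8:11303229-11303288, correlated with r = 0.94. Probes 1 and 2, which share 26 bases up to G10A, correlated with r = 0.35, and the remaining pairs with r of 0.32 to 0.60. Of 9 genes listed as partners of CLU 6 were tested and none passed in any comparison.

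**Figure D4:**
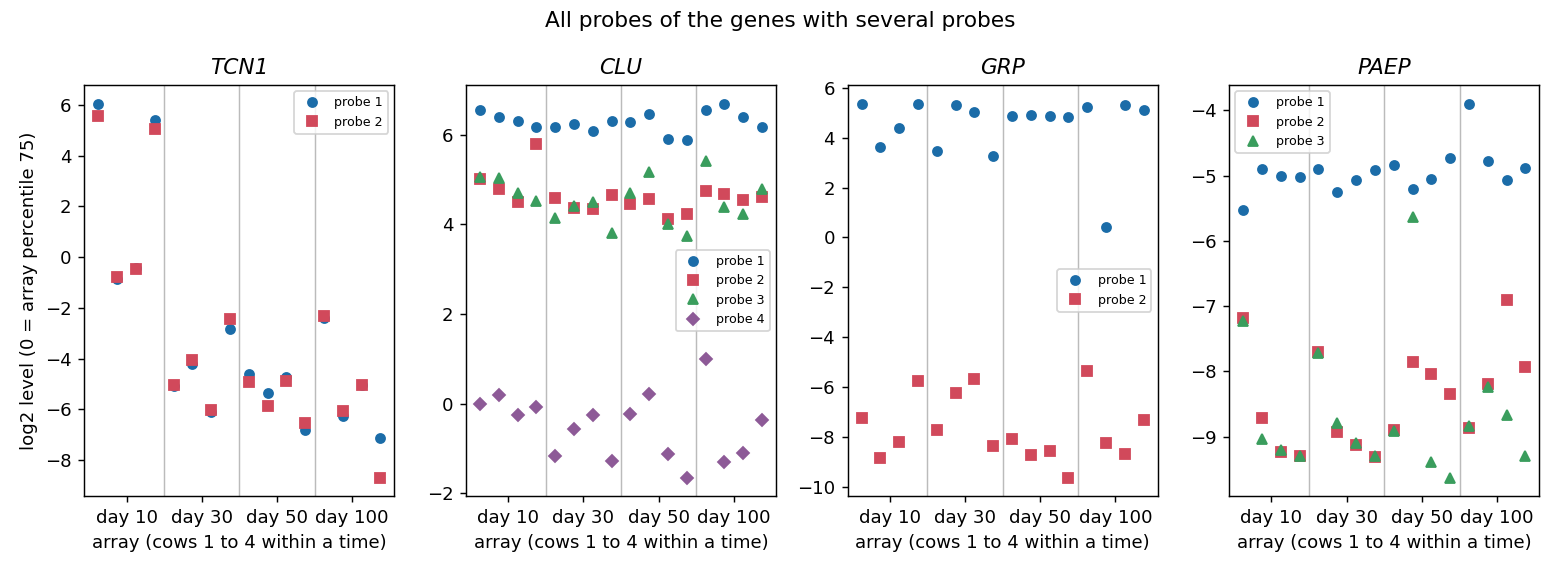
Log2 levels of all probes of TCN1, CLU, GRP and PAEP on the 16 arrays (x axis, cows 1 to 4 within each time; y axis, 0 is the percentile 75 of the array, own range per gene). The TCN1 probes lie on each other, with r = 0.99 over the 16 arrays. GRP probe 2 stood clear of background on 4 arrays, PAEP probe 2 on 0 and PAEP probe 3 on 1. Levels of different probes are not comparable.

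Other secreted products of uterine glands were read from a list of 17, of which 16 were tested. PLET1, a surface and secreted protein of epithelium, passed as lower at day 50, and MEP1B, the beta subunit of the metalloprotease meprin, passed as higher at day 100. MEP1B had levels of 3.87, -5.54, 4.15 and 4.31 at day 100 in cows 1 to 4, against -7.05, -6.33, -5.71 and -6.53 at day 10. The times did not overlap, and 4.57% of all probes lay wholly above day 10 at day 100. For MEP1B this rested on a narrow gap, as cow 2 at day 100 (-5.54) was close to cow 3 at day 10 (-5.71). Its log2 difference was 8.10 ± 1.86 (SE, limma adjusted p = 0.036), and the level in cow 2 at day 100 was far below that of the other 3 cows. PLET1 had levels of -8.48, -6.07, -8.05 and -8.28 at day 50, with 1 of 4 arrays well above background, against 2.15, -4.66, -1.65 and 1.87 at day 10 (log2 difference -7.15 ± 1.35, limma adjusted p = 0.0317). The high pair of cows 1 and 4 at day 10 was the same for PLET1 as for TCN1, STC1 and CST6. The list medians from day 10 were -1.07, -0.06 and -0.64.

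No gene passed among 8 tested factors of gland formation and identity or 10 tested steroid receptors and co-factors. FOXA2, a transcription factor of uterine glands, differed from day 10 by 2.27, 2.96 and 1.83 at days 30, 50 and 100 (limma adjusted p = 0.467, 0.265 and 0.406), and its probe was well above background on 1 of 4 arrays at day 10. PGR, the progesterone receptor, differed by 0.18, -0.93 and -0.98 (limma adjusted p = 0.822, 0.151 and 0.0893), and ESR1, the estrogen receptor alpha gene, by -0.05, -0.71 and -1.18 (limma adjusted p = 0.973, 0.425 and 0.129). ESR2, the estrogen receptor beta gene, differed by 2.39, 4.94 and 3.27 (limma adjusted p = 0.383, 0.0586 and 0.111), and its probe was well above background on 4 of 4 arrays at day 50 and on 1 of 4 at day 10. The labels give no cycle stage for the biopsies.

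The genes whose levels ran most like each of the 8 were found by Pearson correlation over the 16 arrays among 12924 genes, as a description of arrays that share cows and slides. For SPP1 they were GXYLT2, MMP14, NOS2, CD36 and TTR (r of 0.85 to 0.87). For TCN1 they were CXCL8, LOC784768, SLC13A2, CLCA3 and ATP12A (0.93 to 0.97), and for STC1 LYN, ARHGAP9, IRF1, LITAF and LRCH4 (0.93 to 0.96). For GRP they were EPCAM, C6H4orf19, GRHL1, SPINT1 and MUC1 (0.91 to 0.93), and for CST6 FAM3B, CASP8, TAPBPL, ZBED2 and HIF1A (0.93). For SERPINA14 they included DHCR7, HSD17B7, SNX15 and DRAP1 (0.83 to 0.86). For PAEP probe 1 they were SLC16A8, VPS33B, ATXN2L, RPAP1 and AQP4 (0.82 to 0.90), and for CLU probe 1 they included TMSB4X, COX3, LOC615626 and COX2 (0.88 to 0.89). Of the genes named with TCN1, LOC784768, SLC13A2 and CLCA3 were well above background on 4 of the 16 arrays each and ATP12A on 5, and every other gene named here on at least 11.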

How the data were processed

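Endometrial RNA of 4 cows at 4 times was measured on 16 arrays. The scanner files deposited by the authors give linear intensity values of 45220 spots, of which 1417 are controls. Background subtraction preceded the processed intensity per the file headers, and it was detrended within each array by Agilent Feature Extraction 11.5.1.1, while the submitters' processing notes name 10.5.1.1. The other deposited columns used hold 0 or 1 for whether a spot was well above background, nonuniform or saturated. The authors' value table is on a log2 scale and correlated at 0.99985 to 0.99997 with the log2 processed signal scaled to each array's percentile 75 and centred per probe. Its column medians ran from -0.16 to 0.21, and the comparison settles its scale, centring and direction.

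Nonuniform spots were left out (4 to 125 per array), no spot was saturated, and spots of 1 probe were averaged after scaling to the percentile 75. Probe coordinates and sequences are those of the deposited files, on Btau_3.1. Genes of lists were named through accession (20595 probes), symbol (10745), gene ID (1408) or synonym (376) in the RefSeq table of assembly ARS-UCD2.0, and 10529 probes kept the name in the file. Of several probes of a listed gene, the one with the highest mean level was used.

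The model was fitted per probe in R 4.3.3 using limma 3.58.1, with time and cow as terms and 9 residual degrees of freedom, two-sided, and adjusted over the 33174 tested probes. Replicates are different animals, and their spread is in part biological. The labels number the cows and the design states that the same individuals were sampled at each time, so samples are paired by animal. Deviations from the mean of a time correlated with a median of 0.12 over 24 pairs within a cow and -0.04 over 72 pairs between cows. The number of arrays limits the precision. The fit was tested on simulated data.

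The 8 genes, 12 partner lists and 9 cell type lists were chosen with earlier results of these data known. Genes named from the partner lists are those past the threshold, and others named beside them as key members were chosen after their values were seen. The 5 most similar genes of each member are named by correlation, except 2 that are not reported here. Alternatives were normexp background correction with an offset of 50, quantile normalization, the authors' value table, other filters on dim probes, no cow term, array weights, epithelial or smooth muscle list levels as covariates, only the 8 arrays of a comparison, leaving out each cow and, chosen after seeing the data, each array.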

Additional observations from a re-analysis of the deposited data

Results flagged for a closer look

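Of 60 sets of 4 arrays, 1 per probe and time, 2 held an array far from the other 3, where chance gives about 1 in 20. GRP probe 1 was at 0.43 in cow 2 at day 100, against 5.09 to 5.30 in the other cows of that time. On that array the epithelial list was at -3.15 and the smooth muscle list at 2.28, and their part in the value was not tested. PAEP probe 3 was at -7.23 in cow 1 at day 10, against -9.30 to -9.04 in the others, and was not well above background on any of the 4 arrays.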

How the results depend on the processing

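No difference of a member changed sign while called, under any alternative. The number of the 13 probes called at day 30 against day 10 was 0 in the fit described, 3 with array weights, 2 with the epithelial covariate, and 0 to 1 when a cow or an array was left out. At day 50 it was 2, against 0 with probes well above background on all 16 arrays (TCN1 is then untested), 0 with only the 8 arrays, 5 with array weights (SPP1, STC1 and CLU probe 2 added), and 0 to 2 when a cow or an array was left out. At day 100 it was 3, against 1 with that filter (SPP1), 0 with only the 8 arrays, and 0 to 3 when a cow or an array was left out. The F test called 2, both of TCN1. With normexp or the smooth muscle covariate it called 3, SPP1 being added (adjusted p = 0.0497 and 0.0412). It called 1 with quantile normalization, no filter or the epithelial covariate (TCN1 probe 1). With probes well above background on all 16 arrays it called 1 (SPP1, adjusted p = 0.0434). The count was 0 without any 1 cow and 0 to 3 when an array was left out. The comparisons among later times gave 0 under every alternative run. Without the cow term, that is without the pairing by animal, the counts at days 30, 50 and 100 and in the F test were 0, 2, 3 and 2. Over all tested probes the calls against day 10 were 139, 548 and 1527, against 57, 436 and 1359 without the cow term, 759, 4905 and 2791 with array weights, 66, 615 and 1982 with normexp, 297, 351 and 2168 with the epithelial covariate, 85, 1174 and 2463 with the smooth muscle covariate, and 4, 889 and 44 with only the 8 arrays. Leaving out a cow gave 14 to 46, 21 to 149 and 73 to 1578. The F test called 342 of all probes, against 2635 with array weights, 556 with normexp, 664 with the smooth muscle covariate and 17 to 135 without a cow. Among later times the probes called were 0, against 383 at day 50 against day 30 with array weights, and at day 100 against day 30 16 with normexp and 112 without cow 2 at day 100. The causes were not tested beyond the untested probes named.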
